A study of Arabidopsis thaliana with 16 samples.

Results

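Cytochrome P450 enzymes are haem-containing monooxygenases that insert an oxygen atom into small molecules. In plants they form one of the largest enzyme families, and they make or break down hormones, sterols, cell wall precursors, pigments and defence compounds. Most sit in the endoplasmic reticulum membrane and draw electrons from a separate reductase. Genes of the CYP71B subfamily often lie side by side on the chromosome as tandem copies, and for most of them the natural substrate is not known with certainty. The genes described here were taken by symbol: a probe set belonged to the family if the probe annotation listed it with a single gene whose symbol was CYP, a number of at least 2 digits and a capital letter, and the brightest probe set stood for a gene with several. This gave 23 genes, each with 1 probe set, of 13356 genes named on the arrays. Of these, 19 were CYP71B genes, and the other 4 were CYP51G2, CYP78A9, CYP79A2 and CYP84A4. RefSeq (TAIR10.1) lists 236 symbols of this form, 36 of them CYP71B, so the named genes speak for the CYP71B subfamily more than for the family. The annotation gave no gene for 8730 probe sets and several for 503, so P450 genes not named here may still be on the arrays.

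The transcripts were measured in whole Arabidopsis thaliana seedlings 7 days old, after 1 h in a water bath at 37 °C or at 22 °C without it, on 16 Affymetrix arrays in 8 groups of 2. A2QK (line A2QK-10) carries HSFA2 under the CaMV 35S promoter in the QK mutant, QK is the quadruple knockout of HSFA1a, HSFA1b, HSFA1d and HSFA1e, hsfa2 is the knockout of HSFA2 in Col-0, and WT is Col-0. A2QK and QK both have a mixed Col-0 and Ws background. HSFA1 and HSFA2 are heat shock transcription factors, and the study asked which heat-responsive genes depend more on the HSFA1 factors and which on HSFA2. The 35S promoter is active in most tissues and is not itself tied to heat, A2QK is a single line, and no group has the mixed background with intact HSFA1 genes. A difference of QK or A2QK from WT therefore cannot be told apart from the Ws part of the background. Nothing in the labels tells whether both arrays of a group were grown as separate cultures, and the p-values below therefore cover the spread between arrays, which may be technical.

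Values are log2 expression levels made with RMA, and they ran from 1.58 to 13.4 with array medians of 4.87 to 5.21. Arrays of the same group correlated with r of 0.959 to 0.995. Changes are log2 differences ± SE of a limma fit over all 16 arrays and 22746 probe sets, and a gene is said to rise, fall or differ at a Benjamini-Hochberg adjusted p under 0.05 over all probe sets of a comparison. The HSFA1 and HSFA2 genes were not analysed here. The heat marker HSA32, a heat-induced gene of long-term acquired thermotolerance and the 1 named of 10 heat markers, averaged 9.28 in A2QK, 5.62 in QK, 9.67 in hsfa2 and 9.79 in WT after heat, against 6.84, 4.59, 4.64 and 4.86 in the same genotypes at 22 °C. The light-harvesting gene LHCB4.1, 1 named of 24 shoot markers, averaged 12.2 to 12.6 in every group. RNA came from whole seedlings, so fewer cells of a type and less RNA per cell cannot be told apart.

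The 23 P450 probe sets split into a brighter and a dimmer class. CYP71B6, CYP71B28, CYP71B26, CYP71B5, CYP71B34, CYP71B29, CYP71B37, CYP71B35, CYP71B23 and CYP84A4 had a mean over the 16 arrays of at least 4, from 7.05 for CYP71B6 to 4.39 for CYP84A4. The other 13 had means under 4 and stayed between 1.94 and 4.47 on every array. Only 6 of the 23 reached the mean of the median probe set, 5.09. Probe sets bind their targets unequally, so brightness orders probe sets and not transcript amounts. The dimmest 8, CYP71B25, CYP79A2, CYP71B27, CYP71B24, CYP71B21, CYP71B31, CYP71B16 and CYP71B30P, had means of 2.24 to 2.73 and single values of 1.94 to 3.48. None of the 13 dimmer genes passed the test in any comparison as reported, though some did under the alternatives named below, and RMA compresses differences at this end of the scale. The groups differed for the family about as much as for other genes: the median range over the 8 group means was 0.85 for the 23 genes and 0.88 over all probe sets. CYP71B26 stood out by description, with a range of 3.58, wider than that of 98.0% of probe sets. CYP71B5 followed with 2.11, then CYP71B37 with 1.62, CYP71B36 with 1.46, CYP71B29 with 1.25, CYP71B6 with 1.24, CYP71B23 with 1.21, CYP71B35 with 1.19 and CYP71B34 with 1.01. Arrays of the same group differed by a median SD of 0.14 for the 23 genes.

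**Figure D1:**
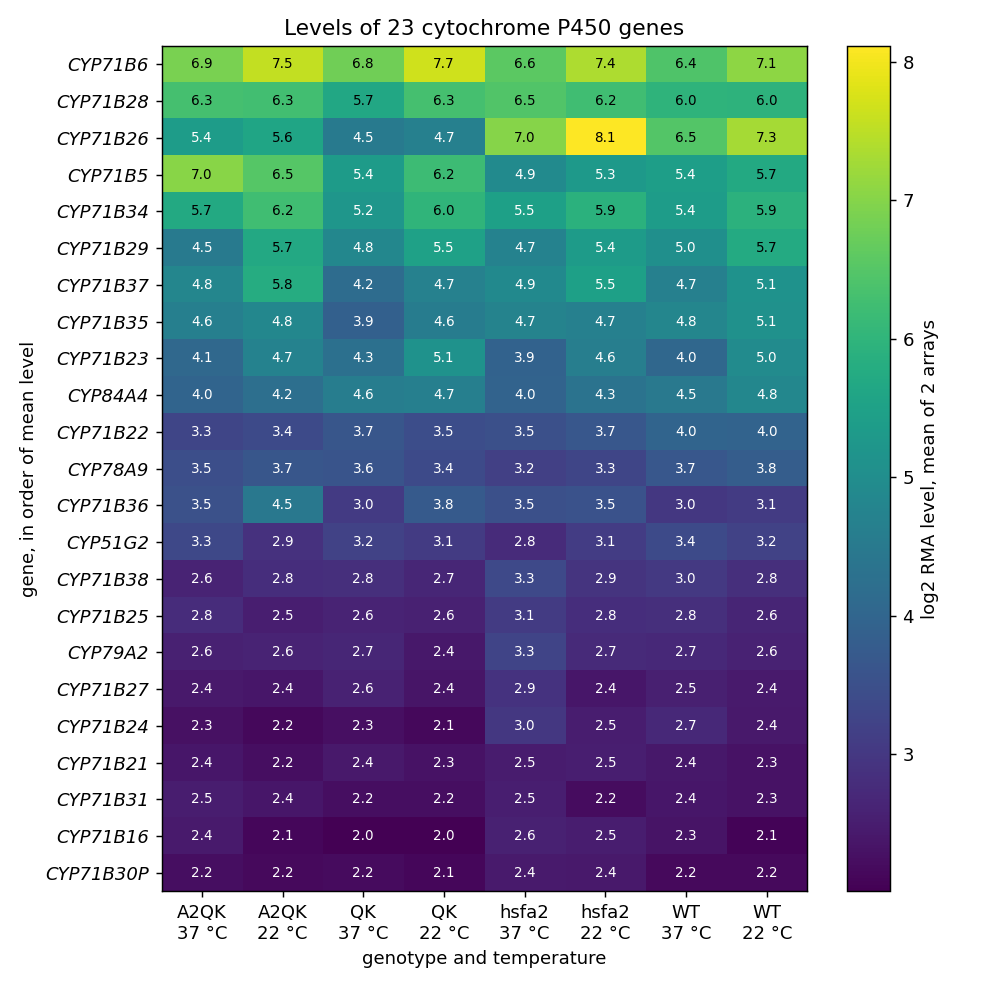
Mean log2 RMA level of the 23 cytochrome P450 genes (rows, in order of mean level) in the 8 groups (columns, genotype and temperature), with the mean of 2 arrays printed in each cell and given by colour. CYP71B26 is bright in hsfa2 and WT and dim in QK at both temperatures, while most genes in the lower part of the map stay under 4 in all groups.

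Heat for 1 h lowered a few of the brighter CYP71B genes and raised none of the 23 in the RMA values as deposited; with equal array medians 1 member passed as raised in A2QK (CYP71B5) and 2 in hsfa2 (CYP71B27 and CYP79A2). Among alternatives on the deposited values, CYP71B27 passed as raised in hsfa2 with a mean-variance trend (0.53, adjusted p = 0.0345), and CYP79A2 without heated hsfa2 replicate 1 (0.75, 0.0376). The fall reached CYP71B29 and CYP71B37 in A2QK, CYP71B6, CYP71B5 and CYP71B34 in QK, CYP71B26, CYP71B6 and CYP71B29 in hsfa2, and CYP71B29 in WT. The sizes were moderate, between -0.65 and -1.20, or 1.57-fold to 2.29-fold. In counts, 2 of 23 genes fell in A2QK, where 9.21% of all probe sets fell, 3 in QK (4.34% of all probe sets), 3 in hsfa2 (8.33%) and 1 in WT (5.33%). The members' shares, 8.70%, 13.04%, 13.04% and 4.35%, stand on 1 to 3 genes each, and such counts show nothing particular to the family. No member rose, where 6.59%, 2.52%, 5.61% and 3.31% of all probe sets rose in A2QK, QK, hsfa2 and WT. The median change of the 23 genes was -0.09 in A2QK, 0.01 in QK, -0.05 in hsfa2 and 0.00 in WT, beside -0.01, 0.03, 0.03 and 0.01 for all probe sets. Among the 10 members with a mean of at least 4 the medians were -0.39, -0.67, -0.50 and -0.50, beside -0.13, -0.01, -0.07 and -0.08 for all probe sets of such a mean.

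CYP71B29 (AT1G13100, chromosome 1) showed the clearest fall with heat. After heat its level was 4.40 and 4.59 in A2QK, 4.64 and 5.03 in QK, 4.72 and 4.70 in hsfa2, and 5.17 and 4.92 in WT. At 22 °C it was 5.74 and 5.65 in A2QK, 5.52 and 5.48 in QK, 5.55 and 5.16 in hsfa2, and 5.67 and 5.82 in WT. Both heated arrays lay below both unheated arrays within each genotype. The change was -1.20 ± 0.18 in A2QK (limma adjusted p = 0.000959), -0.65 ± 0.18 in hsfa2 (0.0345) and -0.70 ± 0.18 in WT (0.0338). In QK the value of -0.66 ± 0.18 did not pass as reported (adjusted p = 0.0506). The QK value passed with only probe sets of a mean of at least 4 (0.0447) and with the block within WT and QK (0.0256). It also did so without heated QK replicate 2. The A2QK call held without each array in turn; the WT call was lost without any 1 of the 4 WT arrays (adjusted p of 0.0685 to 0.179), although 3 members passed without WT replicate 2 at 22 °C, and the hsfa2 call without replicate 1 at 22 °C (0.232) and without either heated replicate (0.0919 and 0.119). Its chromosomal neighbour CYP71B28 (AT1G13090) was not called with heat in any genotype in the fit as reported, nor was CYP71B27 (AT1G13070, annotated as a transcribed pseudogene), which lies farther off.

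CYP71B6 (AT2G24180), which oxidises indole-3-acetonitrile in indole metabolism, was the brightest of the 23 probe sets. After heat it stood at 6.96 and 6.82 in A2QK, 6.74 and 6.86 in QK, 6.68 and 6.48 in hsfa2, and 6.54 and 6.31 in WT. Without heat it stood at 7.65 and 7.45 in A2QK, 7.93 and 7.40 in QK, 7.36 and 7.38 in hsfa2, and 7.33 and 6.85 in WT. Heated and unheated arrays were again apart within every genotype. CYP71B6 fell in QK (-0.86 ± 0.21, limma adjusted p = 0.0295) and hsfa2 (-0.79 ± 0.21, 0.0275). The values of -0.66 ± 0.21 in A2QK (0.0535) and -0.66 ± 0.21 in WT (0.0781) did not pass as reported. With the replicate number as a block both passed (0.0234 in A2QK and 0.0348 in WT). The A2QK value also passed with only probe sets of a mean of at least 4 (0.0469) and with only the arrays compared (0.00826). The WT value also passed with the block within WT and QK (0.0188) and without WT replicate 2 at 22 °C. The hsfa2 call was lost without any 1 of the 4 hsfa2 arrays (adjusted p of 0.0533 to 0.138). In QK it was lost without replicate 1 at 22 °C (0.199) and without either heated replicate (0.147 and 0.087).

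CYP71B34 (AT3G26300) and CYP71B37 (AT3G26330) belong to the tandem group of chromosome 3 and behaved alike in direction. CYP71B34 was at 5.64 and 5.82 in A2QK, 5.26 and 5.19 in QK, 5.71 and 5.27 in hsfa2, and 5.53 and 5.25 in WT after heat. At 22 °C CYP71B34 was at 6.35 and 6.12 in A2QK, 6.22 and 5.78 in QK, 6.02 and 5.80 in hsfa2, and 5.94 and 5.91 in WT. Within each genotype its heated arrays were the lower ones. Its fall passed in QK (-0.78 ± 0.20, limma adjusted p = 0.0399), and was lost there without QK replicate 1 at 22 °C (0.244), heated replicate 1 (0.128) or heated replicate 2 (0.152). After heat CYP71B37 was at 5.09 and 4.55 in A2QK, 4.33 and 4.02 in QK, 4.86 and 4.96 in hsfa2, and 4.81 and 4.52 in WT. Its 22 °C arrays were at 6.01 and 5.57 in A2QK, 4.79 and 4.60 in QK, 5.31 and 5.67 in hsfa2, and 5.26 and 5.01 in WT. Again no heated array reached an unheated one of its genotype. CYP71B37 fell in A2QK by 0.97 on the log2 scale (SE 0.23, limma adjusted p = 0.0141), a call lost without A2QK replicate 1 at 22 °C (0.139) or heated replicate 2 (0.147).

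**Figure D2:**
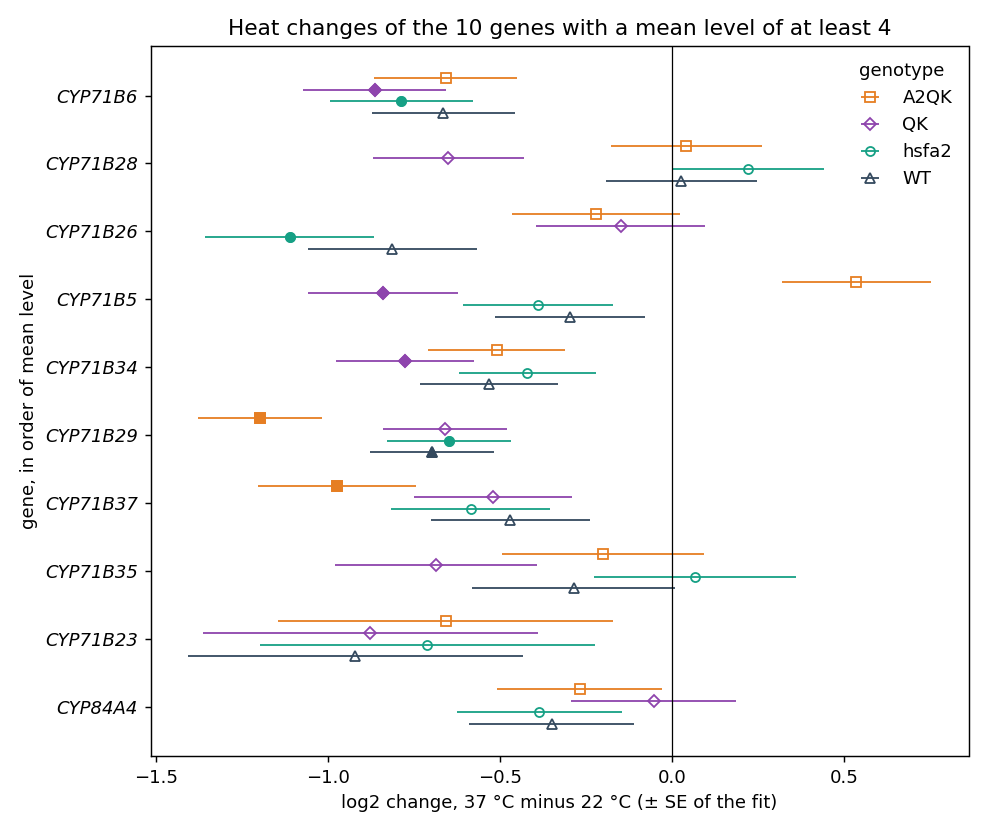
Log2 change with heat, 37 °C minus 22 °C, with the SE of the limma fit, for the 10 P450 genes with a mean level of at least 4 (vertical axis) in each of the 4 genotypes (colours and shapes). Filled symbols passed an adjusted p of 0.05 over all probe sets, open symbols did not, and every filled symbol lies left of 0.

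Heated arrays lay wholly below unheated arrays for 8 of the 23 genes in A2QK (36.3% of all probe sets), 9 in QK (21%), 9 in hsfa2 (30.1%) and 6 in WT (21.7%). They lay wholly above for 7 genes in A2QK (30%), 5 in QK (23.9%), 5 in hsfa2 (30.8%) and 4 in WT (22.6%). Both directions thus occurred, and such counts show nothing particular to the family. The genes that lay above had means under 4, except CYP71B5 in A2QK and CYP71B28 in hsfa2. Of those that lay below, CYP71B22, CYP78A9 and CYP71B36 had means under 4.

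Heated arrays lay wholly below unheated arrays in each of the 4 genotypes for 4 of the 23 genes, CYP71B6, CYP71B34, CYP71B29 and CYP71B37. Of all probe sets 9.02% did so. No member had all heated arrays above the unheated ones in each genotype, against 4.26% of all probe sets. Averaged over the 4 genotypes, a comparison chosen after the data were seen, 6 of the 23 genes fell and 0 rose, where 19% of all probe sets fell and 14.3% rose. The 6 were CYP71B29 (-0.80 ± 0.09, limma adjusted p = 4e-05), CYP71B6 (-0.74 ± 0.10, 0.000204), CYP71B34 (-0.56 ± 0.10, 0.00117), CYP71B37 (-0.64 ± 0.12, 0.00128), CYP71B26 (-0.57 ± 0.12, 0.00374) and CYP71B23 (-0.79 ± 0.24, 0.0267). With equal array medians the median averaged change of all probe sets became 0.19, these 6 falls were kept and 7 dimmer members passed as raised. In the deposited values CYP71B27 passed as raised with a mean-variance trend and with the block within WT and QK. It also did so without replicate 2 of WT or replicate 1 of hsfa2 at 22 °C. Other single arrays left out gave other raised genes. These were CYP71B24 without heated replicate 1 of WT and CYP71B25 without heated replicate 2 of hsfa2. CYP79A2 was raised without heated replicate 1 of hsfa2 or heated replicate 2 of QK. Alternatives added lowered genes too. With the block within WT and QK this was CYP71B36 (-0.44, adjusted p = 0.0139). Single arrays left out gave CYP71B36 (-0.58 and -0.56), CYP71B5 (-0.32), CYP71B35 (-0.38) and CYP84A4 (-0.36). CYP71B23 varied most between arrays of a group, with 5.87 and 4.05 in WT at 22 °C, and its averaged call was lost without any 1 of 7 arrays (adjusted p of 0.0535 to 0.0628): hsfa2 replicate 2, QK replicate 1 and A2QK replicate 1 at 22 °C, and heated replicate 2 of each genotype. The root hair expansins EXPA7 and EXPA18, the 2 named of 24 root markers, fell as well in this average (-1.18 ± 0.14 and -1.54 ± 0.19). Their group means after heat were 3.99 to 4.90 and 4.35 to 4.92, against 5.22 to 5.81 and 5.89 to 6.50 at 22 °C. The shoot marker LHCB4.1 fell too in this average, by 0.25 on the log2 scale (SE 0.06, adjusted p = 0.0103). The part of these markers in the P450 changes was not tested.

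Loss of HSFA2 alone gave no difference that passed among the 23 genes in the fit as reported. CYP718, a P450 gene outside the naming rule, is described at the end. At 22 °C 0 of 23 genes differed between hsfa2 and WT, where 7.9% of all probe sets did. An unadjusted limma p under 0.05 was found for 2 of the 23 genes and for 5197 of all 22746 probe sets. After heat 0 of 23 differed, against 8.01% of all probe sets. An unadjusted p under 0.05 was then found for 5 of the 23 and for 5534 of all 22746 probe sets. Such counts show nothing particular to the family. The widest estimate was that of CYP71B26 at 22 °C, with 8.11 and 8.12 in hsfa2 and 7.63 and 6.97 in WT. Both hsfa2 arrays were the higher ones, and the difference of 0.81 ± 0.24 did not pass (adjusted p = 0.0673; 95% interval 0.28 to 1.35). CYP78A9, which promotes growth of reproductive organs, gave -0.52 ± 0.21 at 22 °C (adjusted p = 0.158) and -0.49 ± 0.21 after heat (0.173). CYP79A2, which converts phenylalanine to its oxime for benzylglucosinolate, gave 0.56 ± 0.18 after heat (0.0878) at group means of 3.27 in hsfa2 and 2.71 in WT. The median difference of the 23 genes was 0.07 at 22 °C and 0.16 after heat, beside 0.01 and 0.03 for all probe sets. Without WT replicate 1 of the temperature, 1 member passed at 22 °C, CYP71B26 as higher in hsfa2 (1.14, adjusted p = 0.0274), and 1 after heat, CYP84A4 as lower (-0.94, 0.0485).

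CYP71B26 (AT3G26290) was lower in QK than in WT at both temperatures, and no other of the 23 genes passed in the fit without the replicate number. At 22 °C its level was 4.95 and 4.41 in QK, against 7.63 and 6.97 in WT. After heat it was 4.45 and 4.61 in QK, against 6.65 and 6.34 in WT. The groups did not overlap at either temperature. The difference was -2.62 ± 0.24 at 22 °C (6.15-fold, limma adjusted p = 0.000197) and -1.96 ± 0.24 after heat (3.89-fold, 0.000348), and both calls held without each array in turn. Between arrays of the same number, QK minus WT was -2.68 and -2.56 at 22 °C and -2.19 and -1.72 after heat. At 22 °C 1 of 23 genes was lower, where 0.972% of all probe sets were, and after heat 1 of 23, where 3.33% were; no member was higher, against 1.22% and 4.17% of all probe sets. After heat the count was 2 without WT replicate 1, where CYP71B24 also passed as lower (adjusted p = 0.0452). It was 2 as well with the replicate number as a block in all groups or within WT and QK alone, where CYP71B35 passed as lower (0.0263 and 0.0301). With only the QK and WT arrays of 22 °C in the fit, the call was lost (adjusted p = 0.384) at the same difference.

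The low level of CYP71B26 was shared by A2QK. Its 22 °C arrays measured 5.44 and 5.77 in A2QK, and its heated arrays 5.29 and 5.47. In hsfa2 they measured 8.11 and 8.12 at 22 °C and 7.13 and 6.87 after heat. All 8 arrays of A2QK and QK (4.41 to 5.77) therefore lay below all 8 arrays of hsfa2 and WT (6.34 to 8.12). This held for 1 of the 23 genes and for 0.712% of all probe sets, and the opposite order for 0 of the 23 and 0.699%. The 8 arrays that were low are those of the mixed Col-0 and Ws background, so a lower transcript level through loss of the HSFA1 genes, one through the background, and a weaker match of the probes to a Ws allele cannot be told apart here. The differences from WT are therefore differences in signal.

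**Figure D3:**
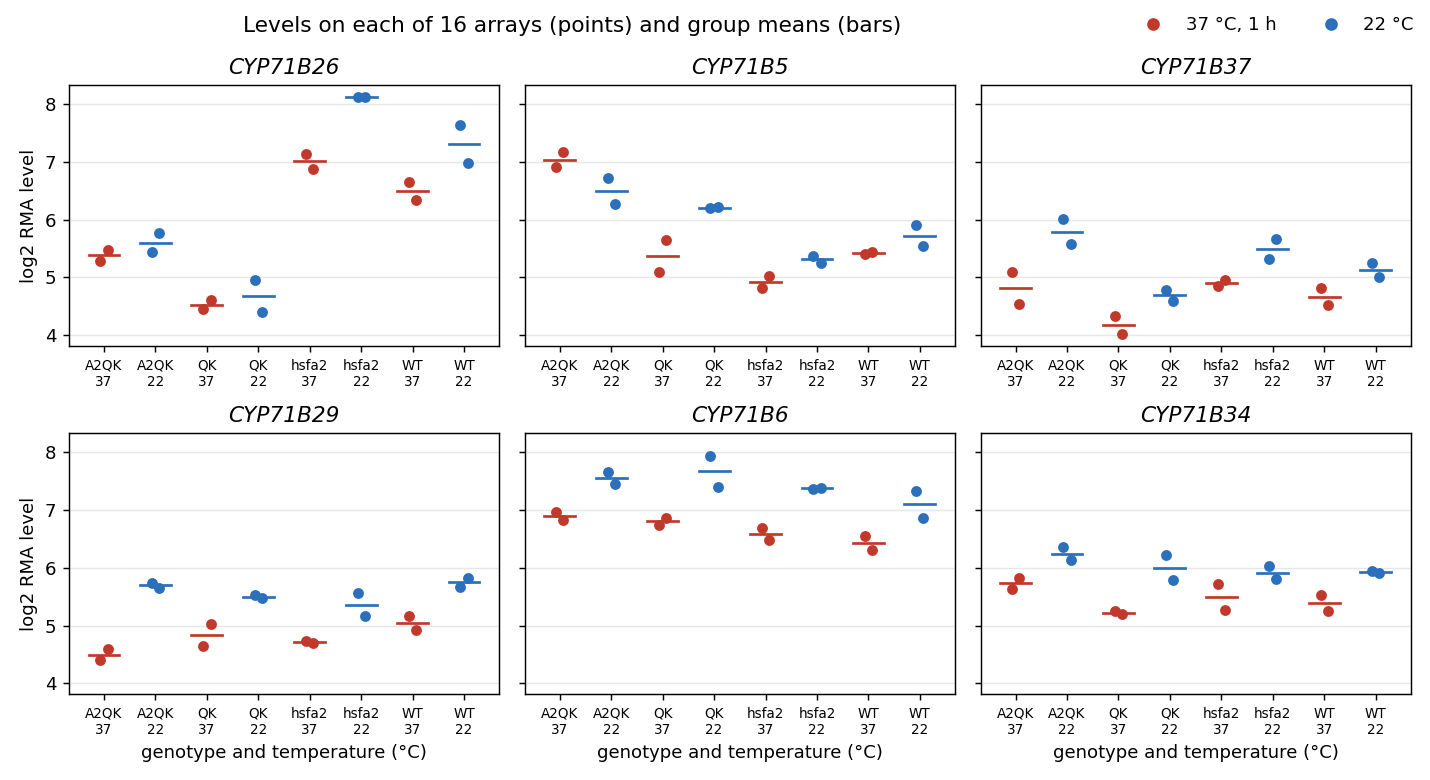
Log2 RMA level of 6 P450 genes on each of the 16 arrays (points) with the mean of 2 arrays (bars), by genotype, with the heated group (red) beside the unheated group (blue). CYP71B26 separates A2QK and QK (4.41 to 5.77) from hsfa2 and WT (6.34 to 8.12), and CYP71B5 peaks in heated A2QK (6.91 and 7.16).

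CYP71B26 lies in a run of CYP71B genes on chromosome 3 whose locus names begin with AT3G26, and 11 of the 23 genes belong to it. Of the 23 genes 16 have a P450 gene as a direct neighbour. The nearest named genes on either side of CYP71B26 did not share its difference. CYP71B34, on one side, gave 0.08 ± 0.20 at 22 °C (95% interval -0.36 to 0.51) and -0.17 ± 0.20 after heat for QK minus WT. CYP71B25 (AT3G26270), on the other side, gave -0.07 ± 0.23 and -0.20 ± 0.23 at levels under 3.5, where little difference can be seen. CYP71B35 (AT3G26310) gave -0.51 ± 0.29 at 22 °C and -0.91 ± 0.29 after heat, with 3.62 and 4.17 in heated QK against 4.77 and 4.84 in heated WT, and did not pass without the number as a block (adjusted p = 0.0948). Between arrays of the same number CYP71B35 differed by -1.15 and -0.67 after heat. How alike these neighbours are in sequence was not measured, so signal shared between their probe sets was not tested. None of the 23 probe sets has the name suffix that marks probes shared between genes. The seed marker OLEO3, 1 named of 18, was also set apart in QK, with 4.63 ± 0.88 in QK and 3.22 ± 0.09 in WT at 22 °C (SD, n = 2 each; 1.40 ± 0.29, limma adjusted p = 0.0296). After heat OLEO3 averaged 4.33 in QK and 3.27 in WT (1.06 ± 0.29, adjusted p = 0.0529). In A2QK OLEO3 averaged 3.13 at 22 °C and 3.25 after heat. The part of OLEO3 in the CYP71B26 differences was not tested.

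**Figure D4:**
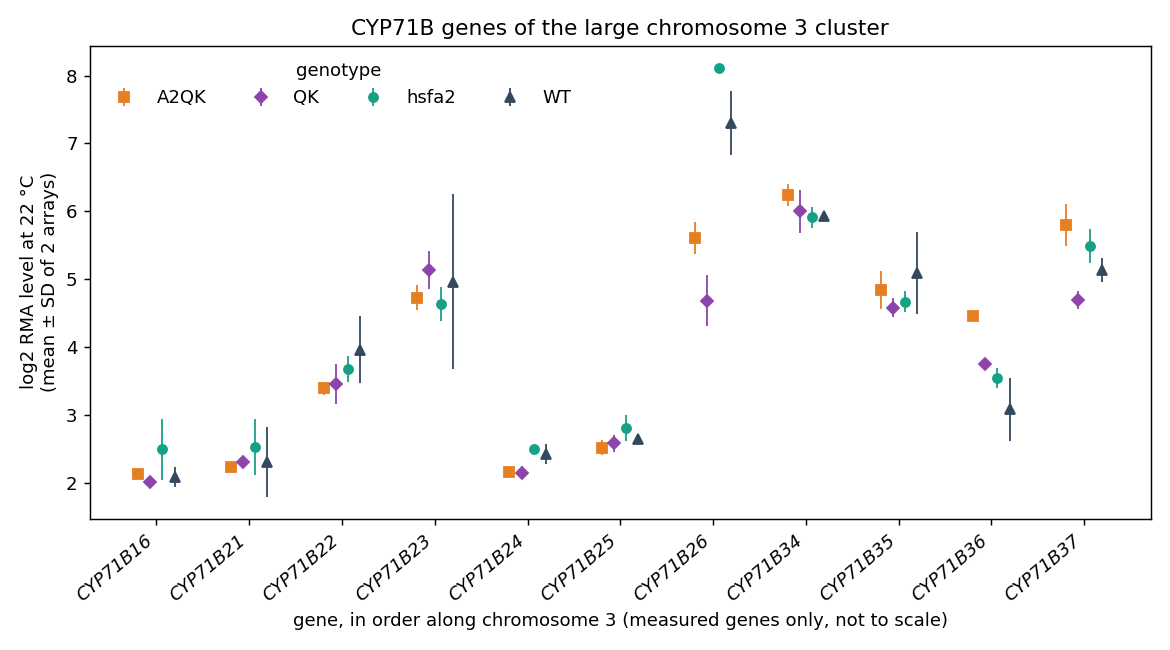
Log2 RMA level at 22 °C (mean ± SD of 2 arrays) of the 11 named CYP71B genes of the chromosome 3 run, in order along the chromosome and not to scale, by genotype. At CYP71B26 the A2QK and QK means (5.60 and 4.68) lie apart from those of hsfa2 and WT (8.11 and 7.30), and no such gap is seen at CYP71B34.

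Expression of HSFA2 in QK went with higher levels of 3 P450 genes. At 22 °C CYP71B37 and CYP71B26 were higher in A2QK than in QK, so 2 of 23 genes were raised, where 5.17% of all probe sets were. After heat CYP71B5 and CYP71B26 were higher, again 2 of 23, where 6.2% were. With the replicate block CYP71B35 also passed as higher after heat (0.74, adjusted p = 0.0471). No member was lower, against 3.92% at 22 °C and 6.12% after heat. The median difference of the 23 genes was 0.11 at 22 °C and 0.09 after heat, beside 0.00 and -0.02 over all probe sets. OLEO3 was lower in A2QK than in QK at both temperatures (-1.49 ± 0.29 at 22 °C, limma adjusted p = 0.0102, and -1.08 ± 0.29 after heat, 0.034), and its part in the P450 differences was not tested.

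CYP71B5 (AT3G53280) gave the widest of these differences. After heat it was at 6.91 and 7.16 in A2QK, against 5.09 and 5.65 in QK. At 22 °C it was at 6.72 and 6.27 in A2QK, against 6.20 and 6.21 in QK. Both A2QK arrays were the higher ones at each temperature, by a wide margin only after heat. The difference was 1.67 ± 0.22 after heat (3.17-fold, limma adjusted p = 0.000454), a call that held without each array in turn, and 0.29 ± 0.22 at 22 °C, which did not pass (0.505). In the other genotypes CYP71B5 was at 4.81 and 5.03 in hsfa2 and 5.41 and 5.44 in WT after heat, and at 5.37 and 5.25 in hsfa2 and 5.90 and 5.54 in WT at 22 °C. Heated A2QK thus had the highest levels of this gene on any array. Its neighbour CYP71B30P (AT3G53290), named as a pseudogene, and the nearby CYP71B31 (AT3G53300) stayed among the dimmest 8.

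The differences at CYP71B37 and CYP71B26 were smaller. CYP71B37 had 6.01 and 5.57 in A2QK and 4.79 and 4.60 in QK at 22 °C, a difference of 1.099 ± 0.23 (limma adjusted p = 0.0139). After heat the value of 0.65 ± 0.23 did not pass (0.098). The 22 °C call was lost without QK replicate 2 (0.0701) or A2QK replicate 1 (0.127). CYP71B26 was higher in A2QK by 0.92 ± 0.24 at 22 °C (0.0385) and by 0.85 ± 0.24 after heat (0.0433). Both A2QK arrays exceeded both QK arrays at each temperature. The 22 °C call was lost without QK replicate 2 (0.214), A2QK replicate 1 (0.0951) or A2QK replicate 2 (0.262), and the heat call without any 1 of the 4 arrays (0.0992 to 0.231). CYP71B36 (AT3G26320), beside CYP71B37, averaged 4.46 ± 0.01 in A2QK and 3.75 ± 0.02 in QK at 22 °C (SD, n = 2 each), and its 0.71 ± 0.39 did not pass. For hsfa2 against WT, which shares no array with A2QK against QK, the same differences were 0.36 and 0.24 at CYP71B37, 0.81 and 0.51 at CYP71B26 and -0.41 and -0.50 at CYP71B5, at 22 °C and after heat, and none passed. WT and QK arrays of the same number deviated together from their group means (r of 0.53 to 0.79 over all probe sets), whereas other pairs of groups gave -0.02 to 0.15. The part of this in the differences of A2QK from QK and of hsfa2 from WT was not tested.

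The heat response itself differed between genotypes at 1 P450 gene. CYP71B5 changed by 0.54 ± 0.22 with heat in A2QK, which passed only with equal array medians (adjusted p = 0.128 as deposited, 0.0367 with equal medians), and fell in QK by 0.84 on the log2 scale (SE 0.22, limma adjusted p = 0.0408). Both heated A2QK arrays lay above their unheated arrays, and both heated QK arrays below theirs. The difference of 1.37 ± 0.31 passed (adjusted p = 0.0467), as 1 of 23 genes where 1.64% of all probe sets responded more in A2QK. It lost the call without any array of A2QK or QK except heated QK replicate 2 (0.0208 without that array, 0.056 to 0.209 without the others), and the fall in QK lost it without either QK replicate at 22 °C (0.132 and 0.121) or without heated QK replicate 1 (0.274). In the heat response of QK against WT 0 of 23 genes passed, where 1.51% of all probe sets did, and in that of hsfa2 against WT 0 of 23, where 0.0044% did. In both, 0 of the 23 had an unadjusted limma p under 0.05. Of all 22746 probe sets, 1483 had one for QK against WT and 1091 for hsfa2 against WT. CYP71B26 fell with heat in hsfa2 (-1.11 ± 0.24, adjusted p = 0.0116), lost without either hsfa2 replicate at 22 °C (0.0639 and 0.0692) or heated replicate 2 (0.079). It gave -0.81 ± 0.24 in WT (0.0671), -0.22 ± 0.24 in A2QK and -0.15 ± 0.24 in QK. The difference of QK from WT, 0.66 ± 0.35, did not pass (adjusted p = 0.936, 95% interval -0.10 to 1.42). The WT value passed with the block within WT and QK (adjusted p = 0.0136) and without WT replicate 2 at 22 °C.

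The annotation named few P450 genes of known pathway role. Of the 18 genes of glucosinolate, indole and camalexin formation, 2 were among the 23: CYP71B6, described above, and CYP79A2 (AT5G05260), with group means of 2.40 to 3.27 and no call. The 1 of 8 phenylpropanoid genes was CYP84A4 (AT5G04330), an enzyme of the arabidopyrone pathway. After heat it was at 4.20 and 3.75 in A2QK, 4.63 and 4.57 in QK, 3.95 and 3.95 in hsfa2, and 4.09 and 4.89 in WT. At 22 °C it was at 4.21 and 4.28 in A2QK, 4.58 and 4.73 in QK, 4.49 and 4.19 in hsfa2, and 4.75 and 4.92 in WT. Its 4 heat changes were all under 0 (-0.05 to -0.39) and none passed, nor did its -0.63 ± 0.24 in A2QK against QK after heat (adjusted p = 0.123). CYP78A9 (AT3G61880), the 1 of 5 organ size genes, had group means of 3.18 to 3.81. CYP51G2 (AT2G17330), of the sterol demethylase family and annotated as a transcribed pseudogene, had group means of 2.77 to 3.37 and was the sole gene found among 8 sterol names. The annotation named no gene from the lists for gibberellin (6), brassinosteroid (9), abscisic acid catabolism (4), cytokinin (2), jasmonate and oxylipins (6), strigolactone (1), cutin, suberin, wax and sporopollenin (11), carotenoids (3) or terpenoids (9), nor from 11 redox partners that pass electrons to P450 enzymes.

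The remaining bright genes carried no call in the fits as reported. CYP71B28 had 6.46 and 6.15 in A2QK, 5.65 and 5.68 in QK, 6.38 and 6.55 in hsfa2 and 6.18 and 5.80 in WT after heat. At 22 °C CYP71B28 had 6.34 and 6.18 in A2QK, 6.63 and 6.00 in QK, 6.14 and 6.34 in hsfa2 and 5.84 and 6.08 in WT. Heated QK was the lowest group, and neither its change with heat (-0.65 ± 0.22, limma adjusted p = 0.111) nor its difference from heated A2QK (0.64 ± 0.22 for A2QK minus QK, 0.0861) passed. Its fall with heat in QK passed with the block within WT and QK (adjusted p = 0.0487) and without QK replicate 2 at 22 °C (0.0326). CYP71B35 was at 4.55 and 4.73 in A2QK, 3.62 and 4.17 in QK, 4.44 and 5.03 in hsfa2 and 4.77 and 4.84 in WT after heat. Its lowest values were again those of heated QK, and its heat change there was -0.69 ± 0.29 (0.219). Over the 13 comparisons planned for the genotypes and temperatures, 16 calls fell on 6 genes, CYP71B5, CYP71B6, CYP71B26, CYP71B29, CYP71B34 and CYP71B37. The share of all probe sets called is given with each comparison above, and this total shows nothing particular to the family.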

How the data were processed

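The 8 groups each have 2 Affymetrix arrays of whole-seedling RNA. The deposited values are log2 levels that the authors made with RMA, per the submitters' processing notes; the RMA version and chip definition, and whether all arrays were normalised in 1 run, were not stated in the labels or notes used here. RMA levels the overall distributions of the arrays and can hide a shift common to most genes. Arrays have no read depth, and their number limits the precision.

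Of 22810 probe sets, 64 controls were left out. The probe annotation gave 13513 of the others a single gene, 503 several and 8730 none, and 13436 of the single-gene probe sets matched RefSeq (TAIR10.1). Two-sided tests used lmFit and eBayes of limma 3.58.1 (R 4.3.3) with 8 group means (8 residual and 3.37 prior degrees of freedom), with Benjamini-Hochberg adjustment over 22746 probe sets. The method was tested on simulated data: for heat in WT it recovered 26 of 50 probe sets with a log2 change of 1 and 47 of 50 with 2, and called 11 of 22546 unchanged ones. The simulated noise was independent between arrays, with the same spread in every group for a probe set. In the data same-numbered WT and QK arrays deviated together, so these rates need not hold there.

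The members and lists were chosen with earlier results of these data known. Genes were named if called in a comparison (up to 10 each), if on a functional list, if among the 5 brightest or the 10 with the widest range of group means, or if neighbours of a called gene. Alternatives were equal array medians, only probe sets with a mean of at least 4, only the arrays compared, the replicate number as a block, a mean-variance trend and leaving out each array. Heat averaged over genotypes and a block within WT and QK were added after the data were seen.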

Additional observations from a re-analysis of the deposited data

Results flagged for a closer look

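The heat response of CYP71B5 was larger in A2QK than in QK by 1.37 on the log2 scale, and this difference passed limma's test (adjusted p = 0.0467). It lost the call with a mean-variance trend, with only the arrays compared and without most single arrays of A2QK or QK. For this gene both heated arrays lay above the unheated ones in A2QK and below them in QK.

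In 4 other cases, a gene in a pair of genotypes each, both heated arrays moved one way in one genotype and the opposite way in the other. The differences themselves were not tested, and how many of all probe sets show this was not counted. Within a genotype, heated arrays lay wholly below unheated ones for 21% to 36.3% of all probe sets. They lay wholly above for 22.6% to 30.8%. These cases therefore show nothing particular to the family. CYP71B5 responded more in A2QK than in WT by 0.83 and more in A2QK than in hsfa2 by 0.92. CYP71B28 gave -0.87 for QK minus hsfa2, with heated arrays below the unheated in QK and above them in hsfa2. CYP78A9 gave 0.34 for QK minus hsfa2, with heated arrays above the unheated in QK and below them in hsfa2, at levels under 4.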

How the results depend on the processing

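Of 22 calls of single P450 genes, taken through 286 alternatives in all, the call held in 218 and was lost in 68, and the direction reversed in 0. The mean filter, the blocks, the trend and the fit of only the arrays compared leave the estimate unchanged, so no reversal could occur there. Of the 22 calls, 6 are of averaged heat, chosen after the data were seen, with 22 alternatives each. All of these but CYP71B23 held throughout. The 16 calls of the planned comparisons were lost more often, so the pooled count overstates how well they held. The limits are 2 arrays in a group, and dim probe sets: with only probe sets of a mean of at least 4, the median change of the named P450 genes was -0.39 in A2QK, -0.67 in QK, -0.50 in hsfa2 and -0.50 in WT with heat, 0.57 for A2QK against QK after heat, 0.21 for the difference of their heat responses, -0.17 for hsfa2 against WT at 22 °C and -0.57 for averaged heat. The cause of the moves below was not tested.

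Equal array medians changed the number of called members to 0 with heat in WT (1 as reported), 1 in QK (3) and 13 for averaged heat (6), of which 7 were raised and 6 lowered. They shifted the median of all heat changes to 0.19 in A2QK, 0.10 in QK, 0.21 in hsfa2 and 0.14 in WT, and then gave 1 raised and 2 lowered members in A2QK and 2 raised and 1 lowered in hsfa2. A mean-variance trend gave 1 raised and 2 lowered members in hsfa2, 0 members with heat in WT, 1 in QK, 1 for A2QK against QK after heat (2 as reported) and 0 for the difference between the heat responses of A2QK and QK (1). Of all probe sets, equal array medians left 1845 called in WT (1965 as reported) and 1564 in QK (1561). They gave 3689 in A2QK (3593) and 4197 in hsfa2 (3171). For averaged heat 10999 passed (7569), so the 13 show nothing particular to the family. The trend left 1778 in WT and 1395 in QK, 3166 in hsfa2 (3171 as reported) and 2608 for A2QK against QK after heat (2803). With only the arrays compared, 0 members passed with heat in WT, 0 in QK, 6 in A2QK (2), 0 for QK against WT at 22 °C (1), 0 for A2QK against QK at 22 °C (2) and 0 for the difference of the A2QK and QK heat responses. Of all probe sets, 232 then passed with heat in WT (1965 as reported), 42 in QK (1561) and 7387 in A2QK (3593). For QK against WT at 22 °C 0 passed (498), and for A2QK against QK at 22 °C 442 (2068). Both counts moved alike here but not with equal medians in QK.

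The labels give every group the same replicate numbers without saying that a number marks a shared batch or day. The replicate block gave 2 members with heat in WT and 2 for QK against WT after heat (1 as reported). The replicate block within WT and QK, added after the data were seen, gave 3 members with heat in WT, 5 in QK and 2 for QK against WT after heat. It raised the calls among all probe sets too, to 3652 (1965 as reported), 3408 (1561) and 3381 (1707) in the same order. Differences between same-numbered arrays correlated across probe sets with r of 0.53 to 0.79 among the WT and QK groups and -0.02 to 0.15 among all other pairs of groups.

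Leaving out each array in turn leaves a single array in its group. The median change of the family with heat then ran from -0.15 to 0.01 in A2QK and -0.07 to 0.07 in QK. It ran from -0.23 to -0.003 in hsfa2, -0.12 to 0.13 in WT and -0.13 to 0.01 averaged. For hsfa2 against WT it was 0.02 to 0.12 at 22 °C and 0.06 to 0.24 after heat. For QK against WT it was -0.22 to -0.04 and -0.20 to -0.13, and for A2QK against QK 0.02 to 0.16 and 0.01 to 0.09. For the differences of heat responses it was -0.01 to 0.10 for hsfa2 against WT, -0.16 to 0.06 for QK against WT and -0.06 to 0.08 for A2QK against QK. The number of called members changed in most comparisons, and fewer of all probe sets passed with heat in each genotype. Lost calls are named with each gene above.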

Other observations

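CYP718, a P450 gene whose symbol lacks the letter that defined the family here, was also measured. It was lower in heated A2QK than in heated QK (-1.11 ± 0.26, limma adjusted p = 0.0165), with means of 4.66 ± 0.15 in A2QK and 5.77 ± 0.41 in QK (SD, n = 2 each). It was higher in heated QK than in heated WT (0.99 ± 0.26, adjusted p = 0.0398), where WT averaged 4.78 ± 0.47. At 22 °C it averaged 5.54 in A2QK, 6.28 in QK, 4.49 in hsfa2 and 5.54 in WT, and the difference of hsfa2 from WT passed (-1.06 ± 0.26, adjusted p = 0.0313). With heat it fell in A2QK (-0.88 ± 0.26, adjusted p = 0.0405). No alternative was run for this gene.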
